A study of Mus musculus with 72 samples.

Results

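Rgs16, Nat8, Mme, Col27a1 and Rcan2 are 5 of the 55573 genes in the liver count table, chosen by their differences between genotypes in these libraries, which were among the largest decreases in liver that lacks the clock gene Bmal1. That contrast therefore selected them and is given as a description with no test, while microbial status and time of day within a genotype were tested. The libraries of those tests also entered that contrast, so the p-values of the 5 genes are not independent of the choice. The 72 libraries came from livers of adult male C57BL/6 mice. WT mice carried Bmal1 fl/fl alleles and no Cre, and L-Bmal1-KO (LKO) mice carried the same floxed alleles with Albumin-Cre, so that both genotypes were floxed and only LKO mice lost Bmal1. The Albumin promoter drives Cre in hepatocytes, and the other cells of these livers, which were also in each RNA sample, were not its target. Each genotype was housed either specific-pathogen free (SPF) with gut microbes or germ free (GF) in flexible film isolators, which gave the 4 groups named SPF WT, SPF LKO, GF WT and, for germ-free knockouts, GF LKO. Each group had 18 libraries, 3 mice at each of 6 zeitgeber times from ZT2 in steps of 4 h to ZT22, counted from lights on.

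BMAL1 forms a pair with CLOCK or NPAS2 that binds E-box sequences and switches on the Per, Cry, Rev-erb and Dbp genes, whose products feed back on the loop and pass its rhythm to output genes of the liver. The 5 genes act in different processes. Rgs16 encodes an R4-type regulator of G protein signalling, which shortens the signal of Gi and Gq proteins by speeding GTP hydrolysis, and in liver it is known to follow the daily cycle of feeding and fasting. Nat8 encodes an N-acetyltransferase of the endoplasmic reticulum that completes mercapturic acids, the excreted form of glutathione conjugates. Mme encodes neprilysin, an M13 zinc peptidase on the cell surface that cuts small peptides. Col27a1 encodes a chain of a fibrillar collagen best known from cartilage, and Rcan2 encodes a protein that binds and inhibits calcineurin, the calcium-dependent phosphatase that activates NFAT factors.

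On clock genes 4 libraries stood apart from their labels, and results are given with and without them. Npas2, the partner of BMAL1 that can replace CLOCK, read 14.4 to 44.5 CPM (counts per 1000000 of the scaled library size) in the other LKO libraries and at most 12.8 CPM in WT. Of those labelled SPF LKO, replicate 2 of ZT14 had 0.219 CPM and replicate 1 of ZT18 had 1.82 CPM, both on the WT side. In WT, Arntl (the gene of BMAL1) read 2.12 CPM in replicate 3 of those labelled SPF WT ZT14 against 15.8 and 19.5 in the other mice of that time. It read 8.21 CPM in replicate 3 of those labelled GF WT ZT6 against 1.62 and 2.43. These are called the 4 libraries in doubt. Arntl itself did not check the genotype, because counts were summed over all of its exons, and it read 7.04 to 16.5 CPM in the LKO libraries not in doubt. Total counts were 17369927 to 22076113 per library.

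All 5 genes lie on autosomes (GRCm38, positions as in the count table). Rgs16 (ENSMUSG00000026475) spans chr1:153740349-153745468 on the plus strand, Nat8 (ENSMUSG00000030004) chr6:85830388-85832082 on the minus strand, Mme (ENSMUSG00000027820) chr3:63241537-63386030 on the plus strand, Col27a1 (ENSMUSG00000045672) chr4:63214004-63334991 on the plus strand, and Rcan2 (ENSMUSG00000039601) chr17:43801351-44039516 on the plus strand. Their exons cover 2339, 1123, 11542, 13022 and 4372 bases in that order. Of the exon bases of Rgs16, 236 are shared with the antisense gene Gm28513, and reads there were not told apart by strand. Nat8 shares 5.68% of its 50-base stretches with Nat8b-ps, Nat8f1 and Nat8f4, so a part of its reads could not be placed and its level is a little uncertain.

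RefSeq start windows (GRCm38.p6, 250 bases before the start and 50 after) are shown for Rgs16 and Col27a1, since BMAL1 acts through promoter sequences and since these genes had the strongest daily changes in WT and a single listed start each. The windows are chr1:153740103-153740402 and chr4:63215162-63215461, both on the plus strand and 5′ to 3′, with the bases after the start in capitals.
Rgs16: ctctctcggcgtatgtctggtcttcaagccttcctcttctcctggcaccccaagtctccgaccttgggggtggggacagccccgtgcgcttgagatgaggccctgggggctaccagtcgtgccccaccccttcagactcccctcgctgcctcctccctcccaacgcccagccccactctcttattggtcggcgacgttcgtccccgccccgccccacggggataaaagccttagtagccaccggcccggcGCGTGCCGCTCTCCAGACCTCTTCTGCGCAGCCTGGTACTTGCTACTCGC
Col27a1: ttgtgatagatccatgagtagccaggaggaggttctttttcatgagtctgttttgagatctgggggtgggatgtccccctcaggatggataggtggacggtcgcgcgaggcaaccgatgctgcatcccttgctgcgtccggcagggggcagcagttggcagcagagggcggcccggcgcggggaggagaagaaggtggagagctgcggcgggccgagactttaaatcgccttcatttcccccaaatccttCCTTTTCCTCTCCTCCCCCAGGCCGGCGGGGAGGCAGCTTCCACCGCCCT
Their GC contents were 66% and 61.7%, against a median of 52.7% over all 32851 windows. Over the 10 RefSeq windows of the 5 genes, 0 held the E-box CACGTG on either strand, which 7.15% of all windows held. None of the 10 held TTATGTAA (0.938% of all windows), TTACGTAA (0.119%) or AGGTCA (16.3%) on either strand. These counts say only that the letters are not in these windows.

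Rgs16 was the most variable of the 5 genes and its daily course in WT was clearest in GF mice. In GF WT, Rgs16 read 24.7, 9.78 and 4.51 CPM at ZT2, 104 and 96.6 at ZT6 with 11.7 in the library in doubt, 103, 70.9 and 139 at ZT10, 29.5, 21 and 7.32 at ZT14, 8.54, 2.10 and 3.64 at ZT18, and 16.4, 3.60 and 1.88 at ZT22. All libraries of ZT6 and ZT10 outside doubt stood above every library of the other times. The mean was 21.9-fold higher at ZT10 than at ZT18, and without the library in doubt 4 of 5 neighbouring times in the order of means (ZT10, ZT6, ZT14, ZT2, ZT22, ZT18) overlapped. In SPF WT, Rgs16 read 25.9, 1.36 and 28.3 CPM at ZT2, 112, 7.52 and 48.4 at ZT6, 15.8, 64.9 and 36.7 at ZT10, 10.1 and 25.2 at ZT14 with 120 in the library in doubt, 13.9, 28 and 1.39 at ZT18, and 20.8, 14.4 and 6.61 at ZT22. Mice of the same time differed so much there that the highest and lowest times overlapped.

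In LKO liver Rgs16 was close to the limit of these libraries. Outside doubt, SPF LKO ranged from 0 to 5.57 CPM with a median of 0.277, and the libraries in doubt had 29.2 and 3.02 CPM. In GF LKO the range was 0 to 6.01 CPM, the median 0.107, and the values at ZT10 were 0.953, 1.99 and 6.01 against 0.0527, 0 and 0.102 at ZT18. No Rgs16 read was counted in 3 libraries (SPF LKO ZT14 replicate 1, GF LKO ZT18 replicate 2 and GF LKO ZT22 replicate 2), which allows a level of up to 0.159, 0.170 and 0.173 CPM by counting error alone. The mean in SPF LKO outside doubt was 3.22% of that in SPF WT, and the mean in GF LKO was 2.36% of that in GF WT. Rgs16 of WT stood above that of LKO without overlap at 6 of 6 times in GF mice and, outside doubt, at 6 of 6 times in SPF mice, although over all times the groups overlapped in both states.

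Nat8 and Mme, the enzymes among the 5 genes, were low in LKO at every time. Nat8 in SPF WT read 8.60, 18.0 and 11.9 CPM at ZT2, 14.9, 12.2 and 14.0 at ZT6, 38.9, 19.1 and 37.9 at ZT10, 30.4 and 22.8 at ZT14 with 7.72 in the library in doubt, 38.8, 38.1 and 32.7 at ZT18, and 29.6, 21.5 and 17.3 at ZT22. In SPF LKO it ran from 0.734 to 2.20 CPM outside doubt (median 1.41), with 24.9 and 23.6 CPM in the libraries in doubt. In GF it ran from 15.4 to 44.6 CPM in WT (median 26.3) and from 0.103 to 1.28 CPM in LKO (median 0.547). WT and LKO did not overlap in GF mice, nor in SPF mice outside doubt, and the LKO mean was 5.96% of the WT mean in SPF and 2.00% in GF mice.

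Mme had the highest median counts of the 5 genes in both WT groups. In SPF WT it ran from 53 to 147 CPM outside doubt (median 83.2), lowest at ZT6 (69.9, 59.5 and 55.2) and highest at ZT18 (147, 113 and 126). In GF WT it ran from 35 to 114 CPM with a median of 77.6. In LKO it ran from 2.10 to 10.9 CPM in SPF mice outside doubt (median 5.88) and from 0.815 to 3.49 CPM in GF mice (median 2.03), and the libraries in doubt had 70.04 and 93.7 CPM. As for Nat8, WT and LKO stood apart in GF mice and in SPF mice outside doubt, with LKO means of 7.16% (SPF) and 2.71% (GF) of the WT means.

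Col27a1 had a clear daily course in SPF WT mice. In SPF WT it read 18.2, 38.3 and 37.2 CPM at ZT2, 22.7, 11.6 and 25.9 at ZT6, 56.3, 56.7 and 56.8 at ZT10, 104 and 111 at ZT14 with 41 in the library in doubt, 82.8, 83.4 and 69.8 at ZT18, and 42.4, 59 and 39.7 at ZT22. Outside doubt the mean was 5.35-fold higher at ZT14 than at ZT6, and in the order of means (ZT14, ZT18, ZT10, ZT22, ZT2, ZT6) only 2 of 5 neighbouring times overlapped. In GF WT it read 32.3, 15.7 and 20.3 CPM at ZT2, 12.3 and 17.6 at ZT6 with 49.6 in the library in doubt, 31, 22.8 and 23.7 at ZT10, 67, 65.9 and 37.6 at ZT14, 80.0, 59.9 and 59.8 at ZT18, and 31.5, 38.2 and 33.9 at ZT22. In LKO liver it ran from 4.06 to 15.1 CPM in SPF mice outside doubt (median 6.88) and from 1.80 to 4.71 CPM in GF mice (median 2.49). The libraries in doubt, labelled SPF LKO, had 118 CPM at ZT14 and 82.2 CPM at ZT18, within or above the SPF WT values of those times. Means in LKO were 13.7% (SPF, outside doubt) and 6.83% (GF) of those in WT. In SPF mice the ranges overlapped, since WT at ZT6 reached down to 11.6 CPM.

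Rcan2 was the lowest of the 5 genes in WT. It ran from 4.54 to 14.5 CPM in SPF WT and from 4.63 to 12.4 CPM in GF WT, with medians of 7.86 and 6.83. In SPF LKO it ran from 0.596 to 1.89 CPM outside doubt (median 1.17), with 8.93 and 6.15 CPM in the libraries in doubt, and in GF LKO from 0.581 to 1.47 CPM (median 1.05). The LKO mean was 14.0% of the WT mean in SPF mice outside doubt and 13.5% in GF mice, and the genotypes did not overlap. Per exon length, the medians outside doubt in SPF WT were 19.1 RPKM for Nat8, 8.88 for Rgs16, 7.21 for Mme, 4.32 for Col27a1 and 1.81 for Rcan2. In GF LKO the medians ran in another order, 0.487 RPKM for Nat8, 0.241 for Rcan2, 0.191 for Col27a1, 0.176 for Mme and 0.0457 for Rgs16.

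**Figure D1:**
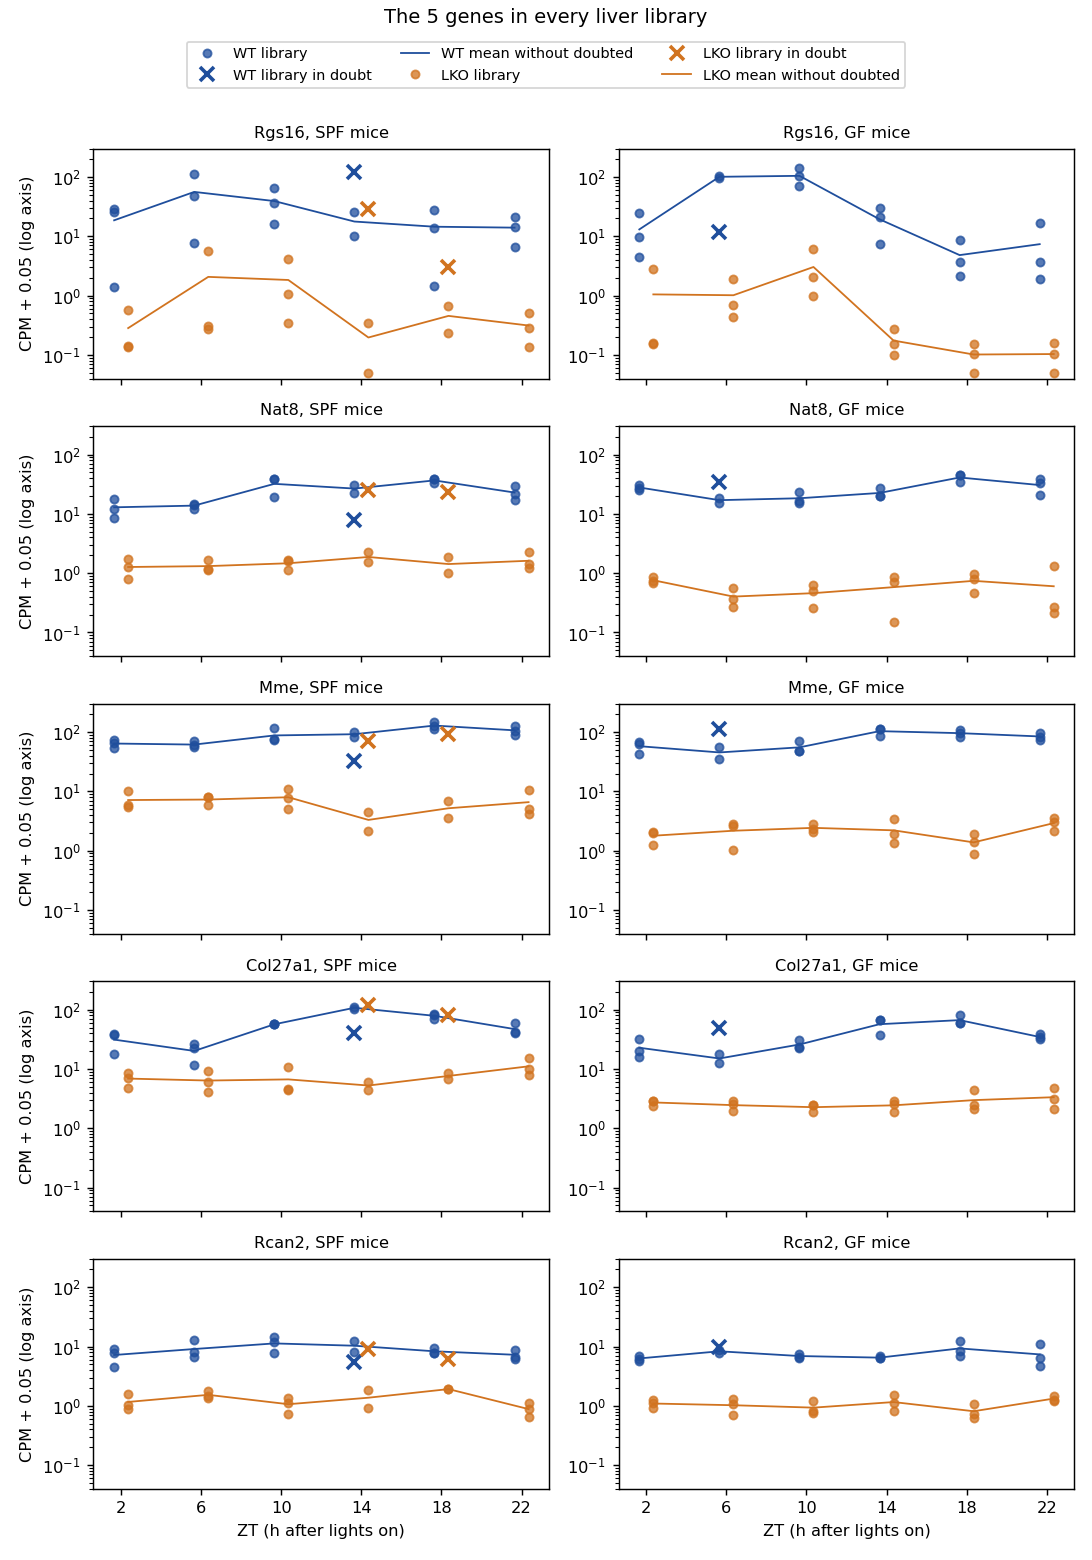
Level of each gene (CPM plus 0.05, log axis) against ZT in hours after lights on, in SPF mice (left) and GF mice (right). Each circle is 1 library of WT (blue) or LKO (orange), crosses are the 4 libraries in doubt, and lines join the means without them. The LKO points lie under the WT points at every time, for example 1.80 to 4.71 CPM against 12.3 CPM or more for Col27a1 in GF mice, whereas both SPF LKO crosses lie on the WT side for Nat8, Mme, Col27a1 and Rcan2.

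The fitted decreases that chose the genes were as follows (log2 difference, LKO minus WT, with the 6 times pooled, ± SE, 18 libraries a group). In GF mice they were -5.64 ± 0.21 for Nat8, -5.38 ± 0.67 for Rgs16, -5.20 ± 0.19 for Mme, -3.86 ± 0.22 for Col27a1 and -2.88 ± 0.13 for Rcan2. In SPF mice they were -3.70 ± 0.65 for Rgs16, -2.57 ± 0.43 for Nat8, -2.56 ± 0.40 for Mme, -2.17 ± 0.27 for Rcan2 and -1.59 ± 0.42 for Col27a1. Without the 3 SPF libraries in doubt the SPF differences were -4.94 ± 0.58 for Rgs16, -4.07 ± 0.22 for Nat8, -3.80 ± 0.19 for Mme, -2.86 ± 0.25 for Col27a1 and -2.82 ± 0.16 for Rcan2. The smaller SPF differences of all libraries thus moved with 3 libraries. Decreases were ranked among genes with an edgeR adjusted p under 0.05 and a mean of at least 1 on the log2 CPM scale. These genes also had a lower mean in LKO than in WT at each of the 6 times. Rgs16, Nat8, Mme and Rcan2 ranked 1, 3, 4 and 5 of 904 in SPF mice and Col27a1 ranked 26. In GF mice Nat8, Rgs16, Mme and Col27a1 ranked 1 to 4 of 1343 and Rcan2 ranked 10. At the edge of the top 5 stood Rcan2 (-2.17) and Mup16 (-2.14), a major urinary protein gene, in SPF mice, and Gm19522 (-3.62) and Slc16a5 (-3.37) in GF mice, while Mup17 ranked 2 in SPF mice with -3.28 and is not among the 5 genes. As background, 11.5% of 13159 genes tested were called lower in SPF LKO (14.0% outside doubt) and 15.2% of 12662 in GF LKO, and 1.70% of genes in GF mice and 1.76% in SPF mice outside doubt had WT above LKO without overlap at each of the 6 times. Every WT library stood above every LKO library for 0.730% of genes in SPF mice outside doubt and for 0.845% in GF mice.

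Albumin, itself a liver product, moved with the same genotype groups. Its median outside doubt was 83883 CPM in SPF WT against 34082 in SPF LKO, and its log2 difference was -0.98 ± 0.15 (edgeR adjusted p = 3.14e-06) in SPF and -1.70 ± 0.07 (edgeR adjusted p = 2.90e-22) in GF mice. Of the 10 hepatocyte markers listed, 9 were in the table. Their summed level over all libraries, those in doubt included, had medians of 119430 CPM in SPF WT, 72615 in SPF LKO, 147140 in GF WT and 76390 in GF LKO. The other marker sums below are over all libraries as well. The log2 differences of the other 8 in SPF mice lay between -0.16 for Hnf4a and 0.17 for Fgb, and edgeR called 3 of 9 in SPF mice (2 higher, 1 lower) and 4 of 9 in GF mice (2 higher, 2 lower). The 6 cholangiocyte markers summed to medians of 54.2 CPM in SPF WT, 70.9 in SPF LKO, 44.1 in GF WT and 91.2 in GF LKO. Of the 5 that could be tested, edgeR called 1 in SPF mice, Sox9 (1.17 ± 0.20, edgeR adjusted p = 2.23e-05), and 2 in GF mice, Sox9 (0.78 ± 0.17) and Spp1 (1.18 ± 0.13), each higher in LKO. The median log2 difference of these 5 was 0.02 in SPF mice, where the medians of Krt19, Krt7 and Epcam outside doubt were 1.31, 0.789 and 1.69 CPM in WT and 0.935, 0.523 and 1.14 CPM in LKO. The 8 stellate cell markers summed to 339, 355, 320 and 366 CPM, the 6 endothelial markers to 187, 183, 184 and 185 CPM and the 6 Kupffer cell markers to 280, 241, 252 and 212 CPM, in the same order of groups. Of these, edgeR called 2 of 8 stellate cell markers higher in LKO in each state, 4 of 6 Kupffer cell markers lower in SPF and 2 of 6 in GF mice, and 1 of 6 endothelial markers lower in SPF and 1 higher in GF mice. These marker calls and log2 differences were over all libraries, where 23.1% of all genes tested were called in either direction in SPF and 30.8% in GF mice. Without the libraries in doubt, edgeR called 4 hepatocyte and 2 cholangiocyte markers in SPF mice, and 3 hepatocyte and 2 endothelial markers in GF mice. The other counts of marker calls stayed the same. No marker was at 0 in all libraries, and the part of cell makeup in the levels of the 5 genes was not tested. In these bulk samples fewer cells of a type and less RNA per cell cannot be told apart.

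Among mice without the liver clock, the remaining levels of Mme and Col27a1 were lower in GF than in SPF mice, and Nat8 had the lower median there too. Col27a1 in SPF LKO read 7.13, 4.76 and 8.63 CPM at ZT2, 9.04, 5.89 and 4.06 at ZT6, 4.56, 10.9 and 4.38 at ZT10, 6.02 and 4.39 at ZT14, 6.63 and 8.53 at ZT18, and 7.94, 10.1 and 15.1 at ZT22, apart from the libraries in doubt. Col27a1 in GF LKO read 2.83, 2.83 and 2.37 CPM at ZT2, 2.53, 2.80 and 1.89 at ZT6, 1.80, 2.39 and 2.46 at ZT10, 1.81, 2.52 and 2.84 at ZT14, 4.32, 2.03 and 2.45 at ZT18, and 3.08, 2.09 and 4.71 at ZT22. Every SPF LKO library stood above every GF LKO library of its time, at 6 of 6 times, a pattern shown by 0.292% of all genes tested (0.354% outside doubt), and 16 of 18 GF LKO libraries were below the lowest SPF LKO library. For Mme the groups stood apart at 5 of 6 times, with 10 of 18 GF LKO libraries below the lowest SPF LKO library, and for Nat8 at 4 of 6 times, with 13 of 18. The SPF LKO mean was the higher one at 6 of 6 times for Col27a1, Mme and Nat8, where 13.7% of all genes tested had the higher SPF LKO mean at 6 of 6 times. For Rcan2 it was the higher one at 5 of 6 times. Shares over all genes were not counted for 5 or 4 of 6 times, nor for libraries below the lowest SPF LKO library. Those counts are therefore descriptions only. The comparisons with shares over all genes are descriptions too, because the low LKO values entered the choice of the 5 genes. Col27a1, for example, ranked 4 among the decreases in GF mice and 26 in SPF mice.

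The LKO libraries of this comparison also entered the genotype contrast that chose the genes, so its p-values are not independent of that choice. In the edgeR quasi-likelihood test of GF against SPF within LKO, 18.4% of all 13010 genes tested were called lower at an adjusted p under 0.05. The log2 differences (GF minus SPF) were -2.81 ± 0.43 for Mme (edgeR adjusted p = 5.65e-06), -2.73 ± 0.43 for Col27a1 (edgeR adjusted p = 7.70e-06) and -0.92 ± 0.29 for Rcan2 (edgeR adjusted p = 0.0119), the genes that passed the count filter in both LKO groups. Without the libraries in doubt, which have high values in the SPF arm, they were smaller in size, -1.62 ± 0.19 for Mme (edgeR adjusted p = 4.71e-08) and -1.48 ± 0.16 for Col27a1 (edgeR adjusted p = 8.96e-09). Rcan2 then no longer passed, at -0.29 ± 0.16 (edgeR adjusted p = 0.144). Nat8 entered this test only through its SPF LKO libraries, where it is higher, so its differences of -2.86 ± 0.51, and -1.40 ± 0.21 without the libraries in doubt, are given with no test. Rgs16 was under the count filter in LKO. Without that filter its difference was -1.52 (edgeR adjusted p = 0.152), and 0.0025 (edgeR adjusted p = 0.997) when the libraries in doubt were left out as well. Medians in GF LKO were 38.8% of those in SPF LKO for Nat8, 34.6% for Mme, 36.2% for Col27a1 and 89.7% for Rcan2, outside doubt.

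**Figure D2:**
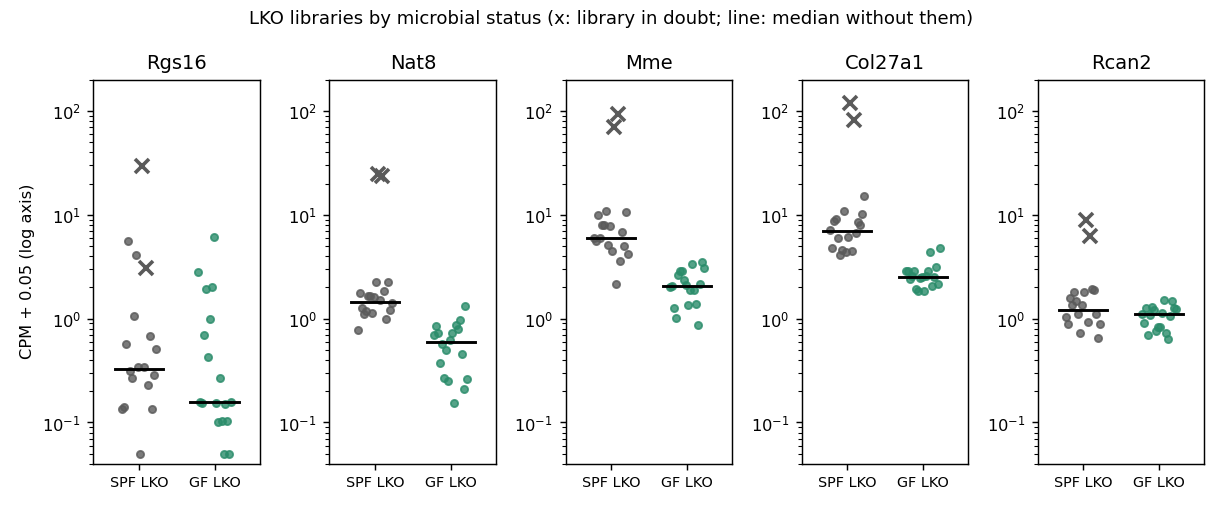
Level of each gene in LKO libraries (CPM plus 0.05, log axis) by microbial status, with 1 point a library, crosses for the SPF LKO libraries in doubt and a line at the median without them. For Col27a1 the SPF LKO points start at 4.06 CPM and 16 of 18 GF LKO points lie lower, whereas for Rcan2 the ranges of 0.596 to 1.89 and 0.581 to 1.47 CPM overlap.

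In WT mice no difference with microbial status was called for any of the 5 genes. By the edgeR quasi-likelihood test 0 of 5 passed, as by DESeq2, and 0 of 5 had an unadjusted p under 0.05, where edgeR called 31.8% of all 12776 genes tested. The log2 differences (GF minus SPF) were 0.17 ± 0.54 for Rgs16, 0.22 ± 0.20 for Nat8, -0.18 ± 0.17 for Mme, -0.47 ± 0.25 for Col27a1 and -0.21 ± 0.13 for Rcan2. Their edgeR adjusted p-values were 0.836, 0.401, 0.418, 0.151 and 0.200. Without the libraries in doubt these were 0.523, 0.592, 0.181, 0.135 and 0.106, and Rcan2 (-0.27) had an unadjusted edgeR p of 0.0435. Over all libraries Col27a1 came closest, with a mean of 53.1 ± 28.3 CPM (SD, n = 18) in SPF WT against 38.8 ± 20.2 CPM (SD, n = 18) in GF WT and a higher SPF mean at 5 of 6 times. It passed when time was fitted as a factor (-0.43, edgeR adjusted p = 0.0397). Whether the effect of microbial status differs between WT and LKO was not tested for these genes, because that difference holds the contrast that chose them.

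Time of day was tested in each group as a 24 h cosine wave. In GF WT, Rgs16 (log2 amplitude 2.31, edgeR adjusted p = 0.000147), Col27a1 (0.85, edgeR adjusted p = 0.00275) and Nat8 (0.47, edgeR adjusted p = 0.0124) passed, 3 of 5 genes where 29.4% of all genes tested passed. Without the library in doubt Mme passed as well (0.61, edgeR adjusted p = 0.000338), which made 4 of 5 against 35.2% of all genes, and Rgs16 had an amplitude of 2.55 (edgeR adjusted p = 1.49e-05). Rcan2 did not pass in GF WT (0.02, edgeR adjusted p = 0.932). In SPF WT, Col27a1 alone passed (0.99, edgeR adjusted p = 0.000632), 1 of 5 against 16.9% of all genes. Without the library in doubt Nat8 (0.78, edgeR adjusted p = 0.00244) and Mme (0.51, edgeR adjusted p = 0.000996) passed too, 3 of 5 against 20.1%, and Rgs16 (1.01, edgeR adjusted p = 0.119) and Rcan2 (0.33, edgeR adjusted p = 0.0915) did not.

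The fitted peaks placed Rgs16 in the light phase and Nat8, Mme and Col27a1 in the dark phase. Cosine fits on log2 CPM without the libraries in doubt put the peak of Rgs16 at ZT 8.50 ± 2.16 h (SE) in SPF WT and 8.31 ± 0.52 h in GF WT. Those of Col27a1 were 15.8 ± 0.52 h and 17 ± 0.42 h, and those of Mme were 17.3 ± 0.68 h and 17.6 ± 0.62 h. Nat8 peaked at ZT 15.4 ± 0.72 h in SPF WT and 20.1 ± 0.73 h in GF WT, and its means were highest at ZT18 in both (36.5 ± 3.33 and 40.9 ± 6.15 CPM, SD, n = 3) with the lowest at ZT2 in SPF WT (12.8 ± 4.79 CPM) and, outside doubt, at ZT6 in GF WT. The test of a difference in rhythm between GF and SPF called 0 of 5 genes in WT, with Nat8 nearest at an edgeR adjusted p of 0.343 (0.0672 without the libraries in doubt), 1 of 5 at an unadjusted p under 0.05 and 0 of 5 by DESeq2, against 0.0470% of all genes. Within LKO it called none of Mme, Col27a1 and Rcan2 (edgeR adjusted p = 0.251, 0.125 and 0.150), against 5.34% of all genes. DESeq2 called none of them either. Their unadjusted edgeR p-values were 0.0739, 0.0182 and 0.0266, and 0.566, 0.913 and 0.451 without the libraries in doubt. Nat8 entered this test only through its SPF LKO libraries, where it is higher. Its rhythm difference of 0.93, and 0.31 without the libraries in doubt, is given with no test. Rgs16, under the count filter there, had an edgeR adjusted p of 0.0118 without the filter, and of 0.0654 when the libraries in doubt were left out as well.

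In SPF LKO liver the calls of rhythm depended on the libraries in doubt, and the p-values also on the count filter. In SPF LKO Nat8 (edgeR adjusted p = 0.0142) and Col27a1 (edgeR adjusted p = 0.0268) passed over all libraries, 2 of 4 genes past the filter, where 24.5% of all genes tested passed. Without the libraries in doubt the edgeR adjusted p-values were 0.496 for Nat8 and 0.184 for Col27a1, and 0 of 4 passed where 21.8% of all genes did. With neither the filter nor the libraries in doubt, the edgeR adjusted p-values were 0.00238 for Mme (amplitude 0.45), 0.000275 for Col27a1 (0.38) and 0.551 for Nat8 (0.21). Mme and Col27a1 were past the filter and had amplitudes of 0.45 and 0.38 with it as well. In GF LKO, which held no library in doubt, 0 of the 3 genes past the filter passed by edgeR and 0 of 3 by DESeq2, with 0 of 3 at an unadjusted p under 0.05, where 38.6% of all genes passed, and the amplitudes were 0.11 for Mme, 0.23 for Col27a1 and 0.13 for Rcan2. Rgs16 was under the filter in both LKO groups. Its cosine fit had a log2 amplitude of 1.90 ± 0.41 (SE) and a peak at ZT 7.66 ± 0.82 h in GF LKO, on counts of 0 to 115 per library, and an amplitude of 0.88 ± 0.52 in SPF LKO outside doubt. Tested by edgeR without the filter, its adjusted p was under 0.05 in GF LKO (1.89, edgeR adjusted p = 6.75e-09). So it was in SPF LKO, with (1.10, edgeR adjusted p = 0.00122) and without the libraries in doubt (0.90, edgeR adjusted p = 1.62e-18). The last of these p-values stands beside a cosine amplitude less than 2 SE from 0, and the tests without the filter are given as values and not counted as calls. Without the filter, SPF WT over all libraries had values under 0.05 as well. The edgeR adjusted p-values there were 0.0124 for Rgs16 (amplitude 1.085), 0.00147 for Nat8 and 0.0021 for Mme. The GF LKO counts of Rgs16 were 19, 39 and 115 at ZT10 against 1, 0 and 2 at ZT18. Most of these libraries held only a few Rgs16 reads.

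**Figure D3:**
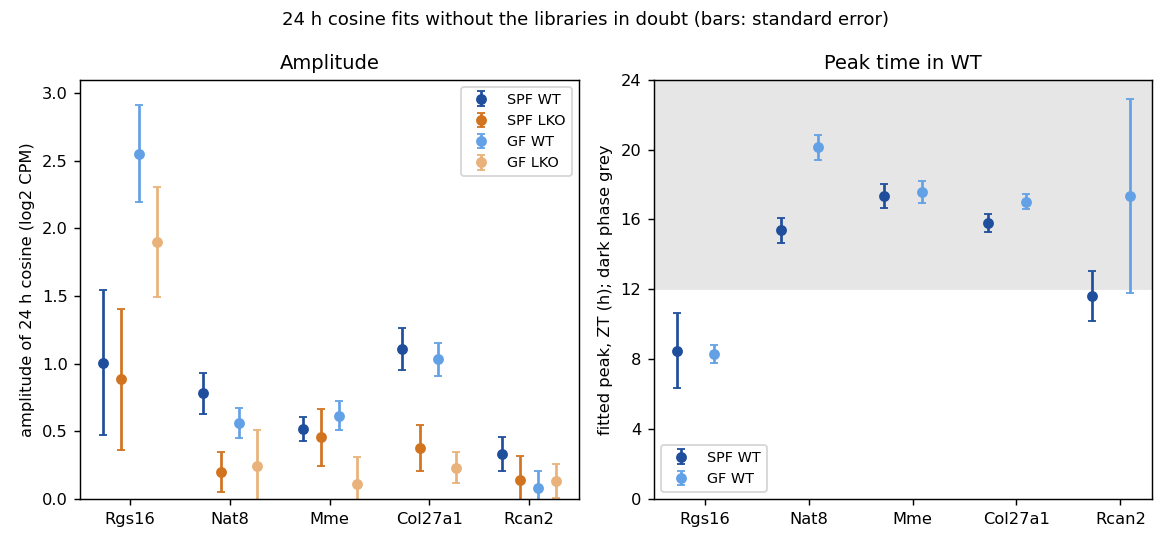
Cosine fits on log2 CPM without the libraries in doubt. Left, amplitude of each gene in the 4 groups (points, with bars for the SE); right, time of the fitted peak in WT, in ZT hours, with the dark phase in grey. Rgs16 has the largest amplitude of the 5 genes in GF WT (2.55) and peaks near ZT 8 in both WT groups, while the peaks of Nat8, Mme and Col27a1 lie between ZT 15.4 and 20.1, and the peak of Rcan2 in GF WT is not resolved (SE 5.57 h).

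Relatives of the 5 genes, from lists of their families and pathways, were compared between genotypes as well. Of 9 other genes of the NAT8 family in the table, 4 could be tested. In SPF mice Nat8f5 (-1.45 ± 0.45, edgeR adjusted p = 0.0160), Nat8f1 (-0.23 ± 0.07, edgeR adjusted p = 0.0142) and Nat8f2 (-0.19 ± 0.07, edgeR adjusted p = 0.0359) were lower in LKO, and in GF mice Nat8f5 (-2.75 ± 0.39, edgeR adjusted p = 4.64e-07) and Nat8f1 (-0.27 ± 0.07, edgeR adjusted p = 0.00230) were. Nat8f5 thus fell with Nat8, from a median of 13.7 to 2.67 CPM in SPF mice, while Nat8f2, at 1339 CPM in SPF WT and 1177 CPM in SPF LKO, stayed the most counted of the family. The median over these 4 genes was -0.21 in SPF and -0.24 in GF mice, against -0.01 and 0.01 over all genes tested. In the rest of the mercapturate pathway 2 of 8 genes passed in SPF mice, both lower, namely Ggt6 (-0.52 ± 0.15) and the aminoacylase gene Acy1 (-0.27 ± 0.08). In GF mice 5 of 8 passed, 3 of them lower (Ggt6, Acy1 and Aspa) and 2 higher (Dpep1 and Lap3). The shares of all genes called in either direction were 23.1% in SPF and 30.8% in GF mice. These calls of relatives are over all libraries. Without those in doubt, 3 mercapturate genes passed in SPF and 6 in GF mice, and the NAT8 family counts stayed at 3 and 2.

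Rgs16 has relatives among the R4 RGS genes, 5 of which could be tested, with median log2 differences of -0.26 in SPF and -0.12 in GF mice. In SPF mice 1 of 5 passed, Rgs5, lower by a log2 difference of -0.29 ± 0.09 (edgeR adjusted p = 0.0197) in LKO, and in GF mice edgeR called 0 of 5, with 0 of 5 at an unadjusted p under 0.05 and 0 of 5 by DESeq2. Among the 9 G protein alpha subunits, 5 passed in SPF mice (2 higher, 3 lower) and 4 in GF mice (1 higher, 3 lower). Gna14, a Gq-class subunit, was higher in LKO (0.86 ± 0.12 in SPF and 0.71 ± 0.14 in GF mice), and Gnai1, a Gi subunit, was lower (-0.85 ± 0.18 and -0.51 ± 0.18). Gna12 was lower in both states as well (-0.44 ± 0.08 and -0.57 ± 0.09).

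For Mme, the only other M13 peptidase gene that could be tested, Ece1 (endothelin-converting enzyme), had log2 differences of 0.06 ± 0.07 in SPF and -0.08 ± 0.09 in GF mice and passed in neither. Of the other cell-surface peptidase genes edgeR called 0 of 7 in SPF mice (0 of 7 at an unadjusted p under 0.05 and 0 of 7 by DESeq2) and 0 of 6 in GF mice (1 of 6 unadjusted and 1 of 6 by DESeq2). Dpp4, for example, was at 168 CPM in SPF WT and 172 CPM in SPF LKO (medians outside doubt). Of the other fibrillar collagen genes, 1 of 7 in SPF and 1 of 6 in GF mice passed, and it was Col5a3, which moved opposite to Col27a1 (1.19 ± 0.15, edgeR adjusted p = 1.98e-07, and 1.69 ± 0.15, edgeR adjusted p = 1.26e-11). Its medians were 21.6 CPM in SPF WT, 58.3 in SPF LKO, 12.9 in GF WT and 40.5 in GF LKO. Of the calcineurin and NFAT genes around Rcan2, edgeR called 0 of 8 in SPF mice (0 of 8 at an unadjusted p under 0.05 and 0 of 8 by DESeq2) and 1 of 8 in GF mice, the regulatory subunit gene Ppp3r1 (-0.30 ± 0.05, edgeR adjusted p = 2.97e-05). The paralog Rcan1 had log2 differences of -0.25 ± 0.19 and -0.47 ± 0.20 and did not pass over all libraries. Without the libraries in doubt, edgeR called 1 of the calcineurin and NFAT genes in SPF mice and 1 of the cell-surface peptidase genes in GF mice.

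Clock genes themselves passed in 10 of 18 cases in SPF mice (4 higher, 6 lower) and 11 of 17 in GF mice (5 higher, 6 lower). The shares over all genes tested were 23.1% and 30.8%. Without the libraries in doubt, 9 clock genes passed in SPF and 11 in GF mice. Dbp, a direct output of the clock, was lower in LKO by -2.29 ± 0.53 in SPF and -2.78 ± 0.57 in GF mice, Nr1d1 (REV-ERB alpha) by -2.93 ± 0.53 and -2.80 ± 0.48, and Cry1 was higher by 1.37 ± 0.26 and 1.16 ± 0.24.

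The same relatives were compared between GF and SPF mice within LKO. Of the 4 NAT8 family genes edgeR called 0 lower or higher in GF LKO, with 1 of 4 at an unadjusted p under 0.05 and 0 of 4 by DESeq2, and Nat8f5 had -0.81 ± 0.43 (edgeR adjusted p = 0.141). Of the R4 RGS genes it called 0 of 5 (2 of 5 unadjusted, 0 of 5 by DESeq2). Of the fibrillar collagen genes 1 of 7 was lower, Col5a1 (-0.48 ± 0.15, edgeR adjusted p = 0.0109), and of the cell-surface peptidase genes 2 of 6 passed, Enpep lower (-0.26 ± 0.05, edgeR adjusted p = 0.000194) and Cpm higher (0.43 ± 0.11, edgeR adjusted p = 0.00314). Of the calcineurin and NFAT genes 3 of 8 passed, with Ppp3cc (0.65 ± 0.09, edgeR adjusted p = 2.41e-06) and Ppp3ca (0.19 ± 0.06, edgeR adjusted p = 0.0143) higher and Nfatc1 lower (-0.24 ± 0.07, edgeR adjusted p = 0.00590). The share of all genes called in either direction was 36.4%. The marker lists moved here too, with Alb lower in GF LKO (-0.35 ± 0.14, edgeR adjusted p = 0.0474), Apoa1 higher (0.54 ± 0.08, edgeR adjusted p = 2.78e-06) and 6 of 9 hepatocyte markers higher in all. Of the stellate cell markers 4 of 8 passed, with Pdgfrb (-0.50 ± 0.13), Hgf (-0.44 ± 0.15) and Lhx2 (-0.38 ± 0.12) lower and Colec11 (0.17 ± 0.05) higher in GF LKO. Csf1r (1 of 6 Kupffer cell markers, -0.33 ± 0.07), Kdr (-0.25 ± 0.09) and Sox9 (1 of 5 cholangiocyte markers, -0.51 ± 0.16) were lower too, whereas Lyve1, with Kdr 2 of 6 endothelial markers called, was higher (0.61 ± 0.21). The part of these markers in the levels of the 5 genes was not tested. Without the libraries in doubt, edgeR called 1 NAT8 family gene, 2 fibrillar collagen genes and 6 hepatocyte markers (7 over all libraries). The other counts of this comparison stayed the same.

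Nat8, Mme, Col27a1 and Rcan2 ran closely together over the 24 conditions (4 groups by 6 times, mean log2 CPM of all libraries), a likeness that the shared genotype difference sets in large part. Pearson's r was 0.98 between Nat8 and Mme, 0.96 between Mme and Col27a1, 0.96 between Nat8 and Rcan2, and 0.76 to 0.88 between Rgs16 and the others. Among 14636 genes, those most like Rgs16 were 5031439G07Rik (r = 0.96), Ppm1a (0.96) and Maff (0.94). Slc47a1 (0.98), an organic cation exporter gene, was most like Nat8, Slc16a7 (0.99), a monocarboxylate transporter gene, most like Mme, Gm8941 (0.97) most like Col27a1 and Aldh3a2 (0.97), a fatty aldehyde dehydrogenase gene, most like Rcan2. Over the 12 WT conditions alone, without the libraries in doubt, the picture was another one. Col27a1 and Mme still ran together (r = 0.87), whereas Rgs16 had r of -0.63 with Mme, -0.55 with Nat8 and -0.50 with Col27a1, and Rcan2 had at most 0.42 with any of the others. These are descriptions over conditions that share their mice and their scaling.

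Mice of the same group and time differed more in Rgs16 than in nearly any other gene. The median over the 6 times of the SD between mice, on the log2 scale and outside doubt, was 1.5 in SPF WT, 1.17 in SPF LKO, 1.02 in GF WT and 0.78 in GF LKO for Rgs16, against medians over 14636 genes of 0.21, 0.18, 0.20 and 0.19. The share of genes with a smaller SD was 99.97% in SPF WT, 99.9% in SPF LKO, 99.8% in GF WT and 98.7% in GF LKO. Median Rgs16 counts were only 6 in SPF LKO outside doubt and 2 in GF LKO, so the LKO values also hold counting error. For Mme and Col27a1 in SPF WT the SDs were 0.22 and 0.23, close to the median gene, and for Rcan2 in GF WT 0.13. In LKO mice Nat8, Mme and Col27a1 spread more than in WT in 5 of the 6 cases of gene and microbial status, with 0.59 for Mme in SPF LKO and 0.56 for Nat8 in GF LKO, where counts were low (2 to 22 reads of Nat8 in GF LKO).

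**Figure D4:**
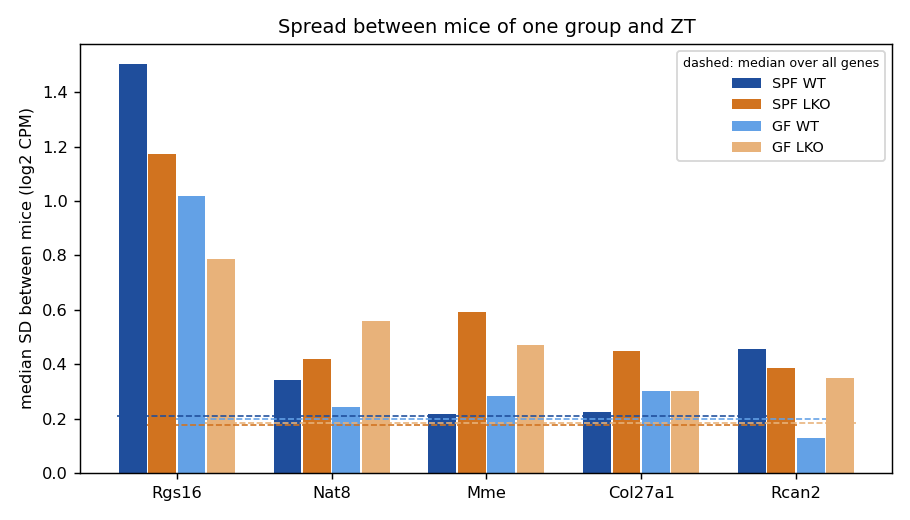
Spread between mice of the same group and time (median over the 6 times of the SD of log2 CPM, without the libraries in doubt), as bars for each gene and group, with dashed lines at the median over all genes in each group. Rgs16 stands highest in every group, from 0.78 in GF LKO to 1.5 in SPF WT, while the dashed lines lie at 0.18 to 0.21.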

How the data were processed

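RNA was extracted from whole liver with TRIzol, libraries were made with a stranded mRNA kit and sequenced as single 50-base reads, and the authors mapped them with STAR 2.6.1b to mm10 and counted reads over exons of Ensembl genes with featureCounts 2.0.0, with no strand setting and without reads that mapped to several places. The deposited values are whole-number counts per gene for 72 libraries, not normalized, and strand was not used, so reads of a gene and of an antisense partner were not told apart. Total counts were 17369927 to 22076113 per library. The counts were matched to samples by the number in the column name.

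From these counts, CPM were computed on library sizes scaled by TMM, and RPKM from CPM and the exon length. Tests used the quasi-likelihood test of edgeR 4.0.16 in R 4.3.3 over all genes that passed filterByExpr (count minimum 10), with Benjamini-Hochberg adjustment over all genes tested and a threshold of 0.05. Microbial status and genotype were fitted with the 6 times pooled, rhythm as the joint test of 24 h cosine and sine terms within a group, and a difference in rhythm as the interaction of those terms with microbial status. Cosine fits, likeness and spread between mice used log2 CPM with a prior count of 2. The SE of a log2 difference was taken from its size and its F statistic. The steps were tested on simulated counts. Intervals for a count of 0 use 3 counts and cover counting error only. DESeq2 1.42.0 and limma 3.58.1 on variance-stabilised values were alternatives. Nothing in the labels says more of the replicates than that they are separate mice of a group. The p-values measure the spread between these mice. In the fits with the times pooled, that spread also holds the change between times, and in the rhythm fits any departure from a cosine.

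The 5 genes, the gene lists and the 4 libraries in doubt were chosen with earlier results of these data known. Named genes are the 5 genes, genes of those lists, the 3 genes most like each over the 24 conditions, and the genes next to the edge of the 5 largest decreases.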

Additional observations from a re-analysis of the deposited data

How the results depend on the processing

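For the 5 genes the alternatives changed few directions. Rgs16 in WT (GF minus SPF) reversed from 0.17 to -0.18 with the replicate block, -0.43 with time as a factor and -0.050 without replicate 1, and Rcan2 in WT reversed to 0.013 without replicate 1, none of them called. With a replicate number or a library in doubt left out, these ran from -0.050 to 0.52 for Rgs16 and from -0.34 to 0.013 for Rcan2. The calls of Col27a1 in WT (edgeR adjusted p = 0.0185 with the replicate block) and of Rcan2 in LKO (0.0744 with it, 0.0800 without replicate 1 and 0.0924 without replicate 2) depended on the setting. With 1 replicate number left out, Col27a1 (SPF WT without replicate 1, 0.0549, and GF WT without replicates 1 and 2, 0.0775 and 0.0942) and Nat8 (GF WT, 0.0669 and 0.132) lost their rhythm calls, whereas Rgs16 in GF WT kept its own. Other settings gained rhythm calls in SPF WT. Mme passed by DESeq2 (adjusted p = 0.0221) and without replicate 3 (edgeR adjusted p = 0.0316). Nat8 passed with time as a factor (edgeR adjusted p = 0.0499) and without replicate 3 (edgeR adjusted p = 0.0305). The labels do not say whether the replicate numbers pair the mice. Per comparison, 2 to 5 of 18 same-numbered pairs correlated above 0.1 and 4 to 8 of 18 libraries correlated best with their own number. These counts showed no clear pairing, though they cannot exclude it.

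Over all genes, rhythm calls with time as a factor fell to 990 in SPF WT (from 2041), 787 in SPF LKO (from 3014) and 1729 in GF WT (from 3429). Genes whose rhythm differed between GF and SPF numbered 6 in WT, 36 by DESeq2, 62 with no filter on low counts and 10 without the libraries in doubt. In LKO they numbered 695, 1127 by DESeq2, 385 without SPF LKO ZT14 replicate 2, 399 without both libraries in doubt, and 1455 with neither these libraries nor the filter, an alternative chosen after seeing the data. Leaving out a replicate number or a single library in doubt gave 1674 to 4083 genes for microbial status in WT and 2431 to 4896 in LKO, rhythm in 492 to 2441 (SPF WT), 564 to 2937 (SPF LKO), 1367 to 4109 (GF WT) and 2069 to 2900 (GF LKO), rhythm differences in 0 to 8 (WT) and 0 to 619 (LKO), and genotype in 1586 to 3514 (SPF) and 2613 to 3819 (GF). The lower ends came from the fits with 2 mice a time. With the replicate block the counts were 4540 and 5046 for microbial status in WT and LKO, 1965 (SPF WT), 3380 (GF WT), 2845 (SPF LKO) and 4577 (GF LKO) for rhythm, 5 and 579 for the rhythm differences, and 3570 and 4491 for genotype in SPF and GF mice. Depth limited Rgs16 and Nat8 in GF LKO, where medians were 2 and 10.5 counts. The causes were not tested.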
